A study of Mus musculus with 69 samples.

Results

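Matrix metalloproteinases (MMPs) are zinc-dependent enzymes that cut collagens and other proteins of the matrix around cells, and the tissue inhibitors of metalloproteinases (TIMPs) bind to their active site and stop them. Both families are transcribed at low levels in many resting tissues and are known to be induced by injury and inflammation, while some members are expressed all the time. In the kidney they are studied for their part in the turnover of basement membranes and in fibrosis. Counts of 10 genes of these families, out of 24411 genes in the table, were followed in 69 libraries of mouse kidney RNA. The genes were taken by symbol and were Mmp2, Mmp3, Mmp7, Mmp8, Mmp9, Mmp13, Mmp14, Timp1, Timp2 and Timp3. Each was found as 1 row, and each passed the filter of 2 counts over the 69 libraries that left 21175 genes for testing.

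The mice carried 1 allele of Uprt, a Toxoplasma gondii enzyme that lets a cell build 4-thiouracil into its new RNA, in the Rosa26 locus behind a stop cassette (UPRTf/+). A Cre transgene removed the cassette, either Hoxb7Cre, active in the collecting duct, or Atp6v1b1Cre (spelled Atp6b1v1 in the sample names), active in intercalated cells and in cells with features of both intercalated and principal cells. All mice, controls included, received 430 mg/kg of 4-thiouracil 4 hours before harvest, and the labelled RNA of a single kidney was biotinylated and pulled down for each pulldown library. Pulldowns came from control mice, from mice labelled 24 hours after both renal arteries had been clamped for 10 minutes (ischemia, iAKI) and from mice kept without water and food for 72 hours (volume depletion, vAKI). At the age of 5.5 months the Hoxb7Cre groups held 4 control, 4 ischemic and 3 volume-depleted males and 4, 3 and 4 females, and the Atp6v1b1Cre groups 4, 3 and 4 males and 4, 3 and 3 females. A further 2 Hoxb7Cre female and 3 Atp6v1b1Cre male control pulldowns came from mice of 3 months. Total kidney RNA was sequenced from controls, with 10 libraries of the Hoxb7Cre and 11 of the Atp6v1b1Cre genotype. Of these, 8 came from males and 8 from females of 5.5 months. The others came from 2 Hoxb7Cre females and 3 Atp6v1b1Cre males of 3 months.

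The libraries held from 12618062 to 30305464 counts, with a median of 20868430. Replicates are separate libraries in the labels, and p-values measure the spread between them. The markers fitted the labels in part. The summed level of 4 principal cell markers (Aqp2, Aqp3, Aqp4, Avpr2) was 2383 to 3017 CPM (the count scaled to library size after TMM normalization) in the male Hoxb7Cre controls and 544 to 977 CPM in total RNA, but the female Hoxb7Cre controls of 5.5 months, at 940 to 2114 CPM, overlapped total RNA. The sum of 5 intercalated cell markers was 670 to 895 CPM in the male Atp6v1b1Cre controls of 5.5 months and 259 to 465 CPM in total RNA. In the male Hoxb7Cre controls it was 535 to 866 CPM, so that this sum did not set the drivers apart. Markers of cells outside both Cre domains were also counted in every pulldown. The sum of 6 proximal tubule markers was at 1641 to 2960 CPM in the male Hoxb7Cre controls and at 7878 to 15380 CPM in total RNA. In bulk RNA, fewer cells of a type and less RNA per cell cannot be told apart. The libraries least like the others of their group were volume-depleted Hoxb7Cre female library 5 (mean Pearson's r of 0.938 with the 3 others) and ischemic Atp6v1b1Cre female library 6 (0.947 with the 2 others).

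Of the 10 genes, 4 lie in a cluster of MMP genes on mouse chromosome 9. In GRCm38, the build of the alignments, they span 427072 bases from 7272514 to 7699585, in the order Mmp13 (7272514 to 7283331), Mmp3 (7445822 to 7455975), Mmp8 (7558456 to 7568485) and Mmp7 (7692090 to 7699585), all on the plus strand. Mmp2 lies on chromosome 8 (92827291 to 92853420), Mmp9 on chromosome 2 (164940780 to 164955850) and Mmp14 on chromosome 14 (54431612 to 54445364). Timp1 lies on the X chromosome (20870166 to 20874735), in an intron of Syn1 on the opposite strand, with which it shares 0 exonic bases. Timp2 lies on chromosome 11 (118301069 to 118355740) and Timp3 on chromosome 10 (86300372 to 86349506). Syn3 overlaps 1733 of the 8144 exonic bases of Timp3 on the opposite strand, but Syn3 had 274 to 971 counts per library against 14694 to 128637 for Timp3. An antisense gene, AV064505, overlaps 123 of the 1068 exonic bases of Mmp7 and had 3 counts in all the libraries together.

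The 150 bases before the RefSeq start of 5 genes (GRCm38.p6, plus strand) are printed because Mmp3, Mmp7, Mmp8 and Timp1 were called higher together in ischemic Hoxb7Cre males, whereas Mmp13, which lies in the same cluster as the 3 enzymes, was not. Capitals mark TGAGTCA or its reverse complement TGACTCA, letters to which AP-1 (the Fos and Jun factors) is known to bind. Variants of these letters were not searched. The windows were chr9:7445672-7445821 for Mmp3, chr9:7691940-7692089 for Mmp7, chr9:7558279-7558428 for Mmp8, chr9:7272364-7272513 for Mmp13 and chrX:20870016-20870165 for Timp1.
Mmp3: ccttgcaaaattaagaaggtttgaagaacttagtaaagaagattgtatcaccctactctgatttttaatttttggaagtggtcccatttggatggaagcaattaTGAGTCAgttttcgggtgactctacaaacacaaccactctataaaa
Mmp7: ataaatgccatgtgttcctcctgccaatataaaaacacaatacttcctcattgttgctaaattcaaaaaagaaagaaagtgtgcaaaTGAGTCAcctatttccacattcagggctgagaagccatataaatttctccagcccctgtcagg
Mmp8: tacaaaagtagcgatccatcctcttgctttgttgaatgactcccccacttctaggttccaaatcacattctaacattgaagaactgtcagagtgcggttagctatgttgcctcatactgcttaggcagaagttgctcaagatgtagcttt
Mmp13: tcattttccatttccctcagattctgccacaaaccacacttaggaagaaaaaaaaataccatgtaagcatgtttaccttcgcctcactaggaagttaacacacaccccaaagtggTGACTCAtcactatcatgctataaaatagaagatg
Timp1: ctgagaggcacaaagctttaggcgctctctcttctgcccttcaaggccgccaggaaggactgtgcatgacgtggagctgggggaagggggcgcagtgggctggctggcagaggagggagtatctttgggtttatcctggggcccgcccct

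The letters began 46 bases before the start of Mmp3, 63 before that of Mmp7 and, on the minus strand, 35 before that of Mmp13. The window printed for Mmp7 is the first of 2 in RefSeq, and the other lacks the letters. They were absent from the 300-base promoter windows of Mmp8, Mmp14, Timp1, Timp2 and Timp3, and no window was at hand for Mmp2 and Mmp9. On either strand they stood in 5.2% of 32851 RefSeq promoters of 300 bases, and in 1.88% within the last 100 bases before the start. A match to letters does not show binding, and the lack of an exact match does not show that a site is absent.

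In resting total kidney RNA the inhibitors Timp3 and Timp2 were far more abundant than the enzymes, while Timp1 lay below Mmp2 and Mmp14. Per kilobase of exon, Timp3, an inhibitor that stays bound to the matrix, was at 340 ± 59.7 CPM (SD, n = 21) and Timp2, which both inhibits Mmp2 and helps to activate it, at 26.1 ± 5.44. The gelatinase Mmp2 stood at 2.25 ± 0.85 CPM per kilobase, and Mmp14, the membrane-bound enzyme that activates it, at 1.91 ± 0.47. Timp1, the inducible inhibitor, was at 0.793 ± 0.508 CPM per kilobase. The stromelysin Mmp3 (0.332 ± 0.232), the collagenase Mmp13 (0.232 ± 0.117), the gelatinase Mmp9 (0.22 ± 0.0871), the matrilysin Mmp7 (0.158 ± 0.0995) and the neutrophil collagenase Mmp8 (0.0774 ± 0.0499) were the lowest. The neighbours in this order from Mmp2 to Mmp14 and from Mmp3 to Mmp7 differed by less than their SDs. Across all 69 libraries Timp3 made up from 86.5% to 97.8% of the summed per-kilobase level of the 10 genes, with a median of 95.7%, while the 7 MMPs together were at 1.14 to 8.49 CPM per kilobase.

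**Figure D1:**
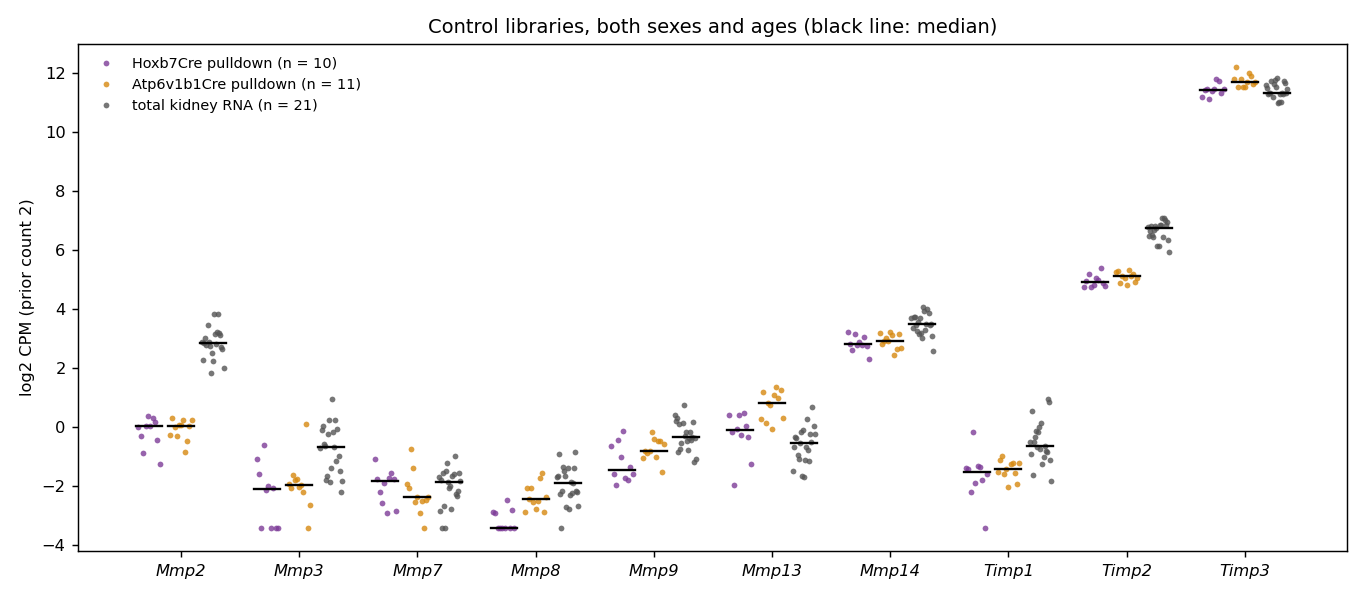
Level of each gene (log2 CPM with a prior count of 2) in every control library of the Hoxb7Cre pulldown (n = 10), the Atp6v1b1Cre pulldown (n = 11) and total kidney RNA (n = 21), with black lines at the medians. Mmp2 and Timp2 sit lower in both pulldowns than in every total RNA library, Mmp13 has its highest median in the Atp6v1b1Cre pulldown, and Timp3 is the highest of the 10 genes in every library.

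The controls show which members the labelled RNA held less or more of than the whole kidney. The pulldowns hold RNA made during the 4 hours of labelling, and total RNA holds older RNA too. Cell of origin and RNA turnover therefore cannot be told apart in this comparison. The paper adds that the method may favour RNA rich in uracil. In each pulldown more members were called lower than higher. In 42 control libraries of both sexes and ages, 6 of the 10 genes were called lower in the Hoxb7Cre pulldown than in total RNA and 0 higher, where 17.9% of all genes tested were called lower and 14.6% higher. A gene was called at an adjusted p under 0.05 and a change of at least 2-fold, a log2 fold change of 1, in edgeR's quasi-likelihood test. In the Atp6v1b1Cre pulldown 4 were called lower and 1 higher, where 16.4% of all genes were called lower and 11.3% higher. The median log2 fold change of the 10 genes was -1.16 in the Hoxb7Cre and -0.61 in the Atp6v1b1Cre pulldown, against 0.11 for all genes in each.

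Mmp2 was the member most depleted. It ranged from 0.328 to 1.19 CPM (median 0.917, n = 10) in Hoxb7Cre pulldowns, from 0.461 to 1.13 CPM (median 0.933, n = 11) in Atp6v1b1Cre pulldowns and from 3.48 to 14.2 CPM (median 7.01, n = 21) in total RNA. No pulldown reached the lowest total RNA library. Its log2 fold change against total RNA was -3.18 (SE 0.205, adjusted p = 1.88e-18) in Hoxb7Cre and -3.01 (SE 0.196, adjusted p = 2.37e-18) in Atp6v1b1Cre. Timp2 was as cleanly separated, with 26.5 to 41.8 CPM in Hoxb7Cre pulldowns, 27.8 to 39.9 CPM in Atp6v1b1Cre pulldowns and 60.1 to 134 CPM in total RNA. The log2 fold changes were -1.67 (SE 0.102, adjusted p = 2.53e-19) and -1.51 (SE 0.0978, adjusted p = 1.85e-18). Markers of other cells moved the same way, and their part in these values was not tested. In the Hoxb7Cre pulldown 4 of 7 endothelial, 5 of 6 proximal tubule and 2 of 2 thick ascending limb markers were called lower. So were 3 of 3 podocyte and 3 of 5 fat markers. In the Atp6v1b1Cre pulldown the counts in this order were 4, 5, 2, 2 and 4. In either pulldown 0 markers of these lists were called higher, and their medians lay between -2.92 and -1.26. Of the 8 fibroblast markers 6 were called lower than in total RNA in the Hoxb7Cre and 5 in the Atp6v1b1Cre pulldown, 0 were called higher, and the medians were -2.38 and -1.57 on the log2 scale. All 8 (Pdgfra, Pdgfrb, Col1a1, Col1a2, Col3a1, Dcn, Lum, Postn) were counted, with a sum of 42 to 94.3 CPM in male and 92.7 to 99.6 CPM in female Hoxb7Cre controls of 5.5 months and 156 to 393 CPM in total RNA. In Atp6v1b1Cre controls of 5.5 months the sum was 134 to 210 CPM in males and 130 to 203 CPM in females, and in the males of 3 months 171 to 216 CPM, so that these sums overlapped total RNA.

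Timp1 and Mmp3 were lower in both pulldowns, with overlapping ranges. Timp1 was at 0 to 0.785 CPM in Hoxb7Cre and 0.152 to 0.408 CPM in Atp6v1b1Cre pulldowns and at 0.187 to 1.84 CPM in total RNA, with log2 fold changes of -1.29 (SE 0.332, adjusted p = 6.49e-04) and -1.26 (SE 0.314, adjusted p = 4.79e-04). Among females alone the calls of Timp1 were lost, at -0.77 (adjusted p = 0.0977) and -0.83 (adjusted p = 0.145). Mmp3 was lower by 1.95 (SE 0.461) on the log2 scale in Hoxb7Cre and by 1.21 (SE 0.435) in Atp6v1b1Cre, with adjusted p = 2.35e-04 and 0.0139. The call in Atp6v1b1Cre was lost among males alone and among mice of 5.5 months alone. In the Hoxb7Cre pulldown Mmp8 and Mmp9 were also called lower, with log2 fold changes of -2.79 (SE 0.485, adjusted p = 1.90e-06) and -1.02 (SE 0.243, adjusted p = 2.5e-04), and Mmp9 lost its call in females alone and with a covariate for the series of library numbers. Leukocyte markers were lower there too, and their part was not tested. Of the 10 neutrophil markers 5 (S100a8, S100a9, Ltf, Retnlg and Csf3r) were called lower, with a median of -1.02 on the log2 scale, and of the 10 macrophage markers 6, with a median of -1.33, and 0 of either list higher. In the Atp6v1b1Cre pulldown 4 neutrophil markers and 1 macrophage marker were called lower and 1 macrophage marker higher, with medians of -0.83 and 0.05. Mmp14 was lower by less than 2-fold in both, at -0.66 and -0.50 (adjusted p = 7.87e-07 and 6.00e-05), as was Mmp9 in Atp6v1b1Cre at -0.52 (adjusted p = 0.0408). At an adjusted p under 0.05 and any size, 31.1% of all genes were lower in the Hoxb7Cre and 29.4% in the Atp6v1b1Cre pulldown.

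Mmp13 went against the others. It was at 0.860 to 2.47 CPM (median 1.68) in Atp6v1b1Cre pulldowns, at 0.164 to 1.31 CPM (median 0.831) in Hoxb7Cre pulldowns and at 0.214 to 1.5 CPM (median 0.590) in total RNA. Its log2 fold change against total RNA was 1.42 (SE 0.234, adjusted p = 6.90e-07) in Atp6v1b1Cre, and the call held under all 10 other settings that kept the fold threshold. In Hoxb7Cre it was 0.46 (SE 0.256, adjusted p = 0.109). Timp3, the most abundant member, was nearly even between pulldown and total RNA, at 2224 to 3583 CPM in Hoxb7Cre, 2914 to 4698 CPM in Atp6v1b1Cre and 2027 to 3666 CPM in total RNA. Its log2 fold change was 0.08 (SE 0.0890, adjusted p = 0.430) in Hoxb7Cre and 0.37 (SE 0.085, adjusted p = 1.84e-04) in Atp6v1b1Cre, where 34.4% of all genes were higher at any size. Mmp7 had at most 11 counts in any control and did not pass the test in either pulldown. Among male controls alone it was called lower in Atp6v1b1Cre, at -1.21 (adjusted p = 0.0270), and among females alone it was at 0.74 (adjusted p = 0.288).

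Set directly against the Hoxb7Cre pulldown, the Atp6v1b1Cre pulldown had 1 member called higher, Mmp8, and 0 lower, where 2.58% of all genes were called higher and 1.53% lower. Mmp8 had 29 counts over 11 Atp6v1b1Cre libraries and 5 over 10 Hoxb7Cre libraries, 6 of which had 0, a ratio of 5.21 with an exact interval from 2.00 to 17.2 for counting error. The log2 fold change was 2.09 (SE 0.548, adjusted p = 0.00669), and the call was lost in males alone and in females alone. Mmp13 differed by 0.96 (SE 0.281, adjusted p = 0.0178), just under 2-fold, where 5.73% of all genes were higher at any size. The principal cell, neutrophil, macrophage and fibroblast markers also differed, and their part was not tested. All 4 principal cell markers were called lower in Atp6v1b1Cre, and of the 5 intercalated cell markers 0 were called. Of the 8 fibroblast markers Pdgfra, Pdgfrb and Col1a2 were called higher in Atp6v1b1Cre. Their sum at 5.5 months was 134 to 210 CPM in male Atp6v1b1Cre and 42 to 94.3 CPM in male Hoxb7Cre controls. In the females it was 130 to 203 and 92.7 to 99.6 CPM, without overlap in either sex. The sum of the 10 neutrophil markers was 1.84 to 3.02 CPM in male Atp6v1b1Cre and 0.562 to 1.39 CPM in male Hoxb7Cre controls of 5.5 months, and 1.24 to 1.82 and 0.746 to 1.05 CPM in the females, without overlap in either sex, with Csf3r the marker called higher. All 10 macrophage markers were counted in both pulldowns, 6 were called higher in Atp6v1b1Cre, and their sum was 171 to 229 CPM in male Atp6v1b1Cre and 66.3 to 96.5 CPM in male Hoxb7Cre controls of 5.5 months. Across the 48 pulldowns the gene with the highest Pearson's r with Mmp13 was Ptprc, the common leukocyte antigen (0.65), as a description over libraries that share groups and drivers.

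The question of the injury groups was which members changed in the labelled cells after each insult. All ischemic and volume-depleted Hoxb7Cre libraries lie in the first series of library numbers, and only part of their controls do. In Hoxb7Cre, insult and series are therefore partly confounded and cannot be fully told apart. After ischemia Timp1 rose in males of both drivers and Mmp7 with it, and Mmp3 and Mmp8 rose in Hoxb7Cre males. In Hoxb7Cre males 4 of the 10 genes were called higher after ischemia and 0 lower, where 1.52% of all genes were called higher and 0.784% lower, and the median log2 fold change was 0.80 against 0 for all genes. Without ischemic library 5 or control 4 or 5, 1 was called, and without ischemic library 7 or control 2 or 3, 2. In Atp6v1b1Cre males 2 were called higher and 0 lower, where 1.14% of all genes were called higher and 1.68% lower, and the median was 0.67 against 0. The ischemic and control libraries did not overlap in 5 members that were higher and 1 that was lower in Hoxb7Cre, where 8.2% and 7.73% of all genes did so, and in 3 higher and 2 lower in Atp6v1b1Cre, where 11.1% and 9.54% did.

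Timp1 stood at 0.295, 0.194, 0 and 0.234 CPM in the 4 Hoxb7Cre male controls and at 0.841, 4.26, 0.969 and 1.57 CPM in the 4 ischemic males. Every ischemic library was above every control. The log2 fold change was 3.35 (SE 0.614, adjusted p = 0.00279), a 10.2-fold change, on 177 against 16 counts. The call held without any 1 of the 8 libraries, at 2.58 to 3.69. In Atp6v1b1Cre males the controls were at 0.335, 0.242, 0.170 and 0.335 CPM and the ischemic libraries at 1.97, 0.925 and 3.45 CPM. Again the groups did not overlap. This was a log2 fold change of 2.93 (SE 0.592, adjusted p = 0.00468), a 7.61-fold change, and it passed without any 1 of the 7 libraries. The difference between the drivers was -0.43 (SE 0.872, adjusted p = 0.872).

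Mmp7, a small enzyme known to be made by injured epithelium, was at 0.211, 0.242, 0.198 and 0.0469 CPM in Hoxb7Cre male controls and at 0.445, 1.55, 0.436 and 0.650 CPM after ischemia. The groups did not overlap, and the highest library, ischemic library 5, was also the highest in Timp1. The log2 fold change was 2.13 (SE 0.598, adjusted p = 0.0355), but the call was lost without ischemic library 5 or 7 or control 2, 3, 4 or 5, at 1.52 to 2.32 with adjusted p from 0.0615 to 0.179. In Atp6v1b1Cre males Mmp7 was at 0.0838, 0, 0.0848 and 0.100 CPM in controls and at 0.753, 0.139 and 0.575 CPM after ischemia, without overlap. There the log2 fold change was 2.72 (SE 0.717, adjusted p = 0.0210), on 38 against 7 counts. It was 2.28 (adjusted p = 0.138), with 1 member called, without ischemic library 1 and 2.38 (adjusted p = 0.0602) without control 9.

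Mmp8, the collagenase that neutrophils store in granules, rose from 3 counts over the Hoxb7Cre male controls to 34 over the ischemic males, from 0.0843, 0, 0.0494 and 0 CPM to 0.544, 0.344, 0.194 and 0.420 CPM. The groups did not overlap, and the ratio of counts per library size was 10.8 with an exact interval from 3.39 to 54.9. That is a log2 fold change of 3.26 (SE 0.912, adjusted p = 0.0350). It was lost without ischemic library 4, 5 or 7 or control 3, 4 or 5, at 2.91 to 3.42 with adjusted p from 0.0647 to 0.106. In Atp6v1b1Cre males the controls were at 0.209, 0.242, 0.0424 and 0.100 CPM and the ischemic libraries at 1.15, 0.231 and 0.451 CPM. Control 9 lay above ischemic library 4, and the log2 fold change of 2.05 (SE 0.711, adjusted p = 0.0743) did not pass. It passed with the 3 controls of 3 months added, at 2.41 (adjusted p = 0.0108), and in the fit of both sexes, at 2.40 (adjusted p = 0.00127).

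The neutrophil markers moved with Mmp8, and their part in it was not tested. All 10 in the table were few: in Hoxb7Cre male controls 6 of the 10 had at most 3 counts in every library, and Ltf was at 0 in all ischemic ones. Their sum was 0.562 to 1.39 CPM in Hoxb7Cre male controls and 1.60 to 3.46 CPM after ischemia, and 1.84 to 3.02 and 2.5 to 4.98 CPM in Atp6v1b1Cre males, where Ltf, Elane and Mpo were at 0 after ischemia. S100a9 was the marker called higher in both. The sum was highest in ischemic Hoxb7Cre library 4, which also had the highest Mmp8, and in ischemic Atp6v1b1Cre library 1, likewise.

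**Figure D2:**
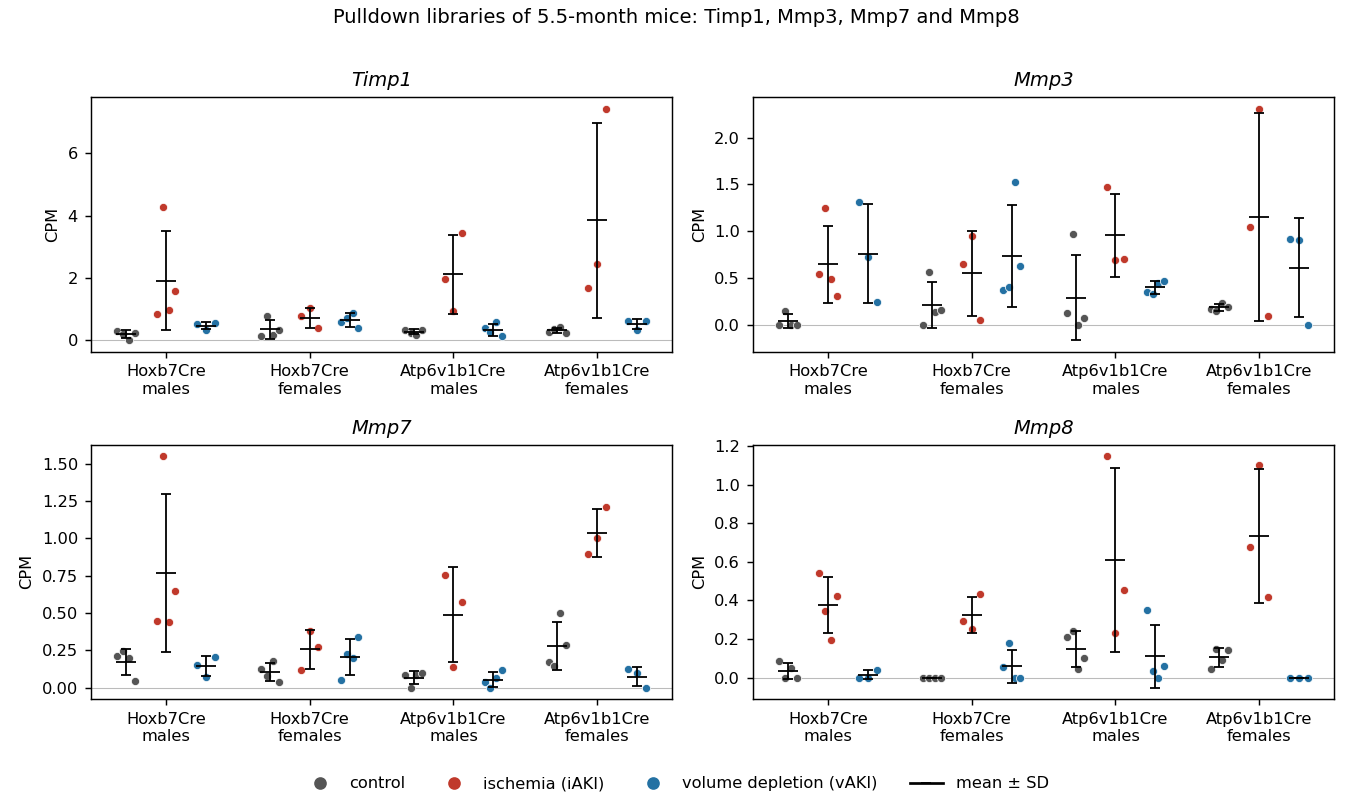
CPM of Timp1, Mmp3, Mmp7 and Mmp8 in each pulldown library of mice of 5.5 months, by driver, sex and treatment, with black bars for the mean ± SD. After ischemia Timp1 and Mmp7 sit above all controls in males of both drivers, and in the Atp6v1b1Cre females; in volume-depleted Hoxb7Cre males Mmp7 and Mmp8 lie below all ischemic libraries.

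Mmp3, a stromelysin that also activates other MMPs, was at 0, 0.145, 0 and 0 CPM in Hoxb7Cre male controls and at 0.544, 1.25, 0.484 and 0.306 CPM after ischemia. The 58 counts against 3 gave a ratio of 18.4 with an exact interval from 6.00 to 91.9. The call at an adjusted p of 0.0252 was lost without ischemic library 5 or control 2, 4 or 5, with adjusted p from 0.0652 to 0.0951 and log2 fold changes of 3.45 to 3.66. Without control 3, the 1 control with counts, the fitted value was 6.93 (adjusted p = 0.0294), which depends on the prior count because the other controls are at 0. It was also lost in the fit of both sexes, at 2.22 (adjusted p = 0.0744) against 4.02 in the males, and in the females alone the log2 fold change was 1.31 (SE 1.00, adjusted p = 0.446). In Atp6v1b1Cre males 3 controls were at 0 to 0.126 CPM, but control 9 had 20 counts, or 0.968 CPM, and lay among the ischemic libraries at 1.47, 0.694 and 0.698 CPM. Its change was 1.8 on the log2 scale (SE 0.769, adjusted p = 0.149), and 3.78 (adjusted p = 0.0122) without control 9. With the 3 controls of 3 months added it was 2.06 (adjusted p = 0.0373), and in the fit of both sexes 2.17 (adjusted p = 0.0156).

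Of the inhibitors that are expressed all the time, Timp2 fell by less than 2-fold in ischemic Hoxb7Cre males, and Timp2 in Atp6v1b1Cre males and Timp3 in males of either driver did not pass. Timp2 was at 31.6, 41.8, 29.5 and 27.6 CPM in Hoxb7Cre male controls and at 24.1, 27.5, 17.7 and 21.3 CPM after ischemia. The highest ischemic library lay just under the lowest control, and the log2 fold change was -0.51 (SE 0.143, adjusted p = 0.0358), where 2.79% of all genes were lower at any size, with adjusted p from 0.0267 to 0.158 when 1 library was left out. It did not pass in the fit of both sexes, at -0.18 (adjusted p = 0.539), with the replicate block, at -0.23 (adjusted p = 0.587), or with the compared groups alone in the fit, at -0.53 (adjusted p = 0.0644). In ischemic Hoxb7Cre females Timp2 was at 0.21 (SE 0.233, adjusted p = 0.626). In Atp6v1b1Cre males the controls were at 29.8 to 36.3 CPM and the ischemic libraries at 25.5 to 29.4 CPM, and the change of -0.30 (SE 0.155, adjusted p = 0.236) did not pass. Timp3 was at 3171 to 4068 CPM in Atp6v1b1Cre male controls and at 2795, 2709 and 1750 CPM after ischemia, without overlap. The change was -0.58 on the log2 scale (SE 0.203, adjusted p = 0.0771), and in Hoxb7Cre males it was -0.30 (SE 0.186, adjusted p = 0.396). In ischemic Hoxb7Cre females Timp3 was higher without overlap, at 0.38 (SE 0.277, adjusted p = 0.423).

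The other 4 enzymes did not pass in ischemic males of either driver. Mmp14 had a log2 fold change of 0.66 in each, with SEs of 0.264 and 0.281 and adjusted p = 0.146 and 0.145. It reached 17.0 CPM in ischemic Hoxb7Cre library 5, against 4.83 to 8.09 CPM in the controls. Mmp9 was at 0.194 to 0.296 CPM in Hoxb7Cre male controls and at 0.344 to 0.593 CPM after ischemia, which did not overlap, with a log2 fold change of 0.94 (SE 0.396, adjusted p = 0.171). Mmp2 was at 0.50 (SE 0.384) in Hoxb7Cre and 0.67 (SE 0.401) in Atp6v1b1Cre. Mmp13 was at -0.01 (SE 0.368) and -0.12 (SE 0.355).

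Fibroblast markers moved with Timp1 in Hoxb7Cre males, and their part was not tested. Of the 8 markers 5 were called higher after ischemia (Pdgfra, Pdgfrb, Col1a1, Col1a2 and Col3a1), and the sum was 42 to 94.3 CPM in controls and 125 to 324 CPM after ischemia. Ischemic library 5 had the highest sum, as it had the highest Timp1, Mmp3, Mmp7 and Mmp14. Without this library Timp1 still passed, at 2.58 or above. The endothelial markers were also higher without overlap, with a sum of 122 to 240 CPM in controls and 252 to 296 CPM after ischemia and 0 of 7 called. The fat markers were lower without overlap, at 37.5 to 101.9 CPM and 8.09 to 23.8 CPM, with Adipoq, Plin1, Ucp1 and Cidea called, and the part of these lists was not tested. In Atp6v1b1Cre males the sum of the 8 fibroblast markers was 134 to 210 CPM in controls and 171 to 322 CPM after ischemia, with Col1a1 the marker called. In these males the sum of the 6 proximal tubule markers was 1696 to 3370 CPM in controls and 756 to 1083 CPM after ischemia, without overlap, with Slc34a1 and Slc5a12 called lower. Umod, a marker of the thick ascending limb, was called higher (1.27, adjusted p = 0.00424). Cd14 of the macrophage markers was also called higher and Kdr of the endothelial markers lower. The part of these markers in the ischemic values was not tested. Within Hoxb7Cre males 3 of the 4 principal cell markers were called lower after each insult, and their sum went from 2383 to 3017 CPM to 769 to 994 CPM after ischemia and 950 to 1056 CPM after volume depletion.

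Volume depletion gave another pattern. In Hoxb7Cre males Mmp3 and Mmp9 were called higher and 0 members lower, where 9.61% of all genes were called higher and 6.81% lower, so that 2 of 10 stood near the background. The median log2 fold change was 0.19 against 0 for all genes, and 3 members were higher without overlap, as were 19.7% of all genes. Mmp3 was at 1.31, 0.724 and 0.247 CPM, above all 4 controls. On the log2 scale the change was 4.23 (SE 1.08, adjusted p = 0.00363), on 52 against 3 counts, a ratio of 20.7 with an exact interval from 6.72 to 103.9. The call held without any 1 of the 7 libraries, at 3.62 to 4.65 except without control 3, where the other controls are at 0 and the fitted value was 7.13. Mmp9, a gelatinase of leukocytes and other cells, was at 0.211, 0.194, 0.296 and 0.234 CPM in controls and at 0.654, 0.470 and 0.740 CPM after volume depletion, without overlap. The rise was 1.39 on the log2 scale (SE 0.406, adjusted p = 0.00955), and the call held without any 1 of the 7 libraries. It was lost with the replicate block and in the fit of both sexes, the latter at 0.36 (adjusted p = 0.481). Timp1 was at 0.503, 0.326 and 0.535 CPM, each above the highest control of 0.295, and its log2 fold change of 1.27 (SE 0.719, adjusted p = 0.184) did not pass.

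Markers of other cells also moved in volume-depleted Hoxb7Cre males, and their part was not tested. The sum of the 8 fibroblast markers was 42 to 94.3 CPM in controls and 101.9 to 144.5 CPM after volume depletion, with Pdgfra called higher. That of 7 endothelial markers was 122 to 240 CPM and 275 to 394 CPM, with Cdh5 and Flt1 called higher. Neither sum overlapped between the groups. Of the 10 macrophage markers Cd68, Cd14 and C1qb were called higher and Adgre1 and Itgam lower, and their sums overlapped at 66.3 to 96.5 CPM and 93.1 to 115 CPM. The neutrophil markers overlapped, at 0.562 to 1.39 CPM and 0.796 to 1.36 CPM, with 0 of 10 called. Other lists were lower. Both markers of the thick ascending limb, Umod and Slc12a1, were called lower, with a sum of 1329 to 2321 CPM in controls and 762 to 850 CPM after volume depletion. So were 4 of 5 fat markers, from 37.5 to 101.9 CPM in sum to 18.02 to 28.98 CPM, and 3 of 5 intercalated cell markers (Foxi1, Atp6v0d2 and Slc4a1), whose sums overlapped.

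In Atp6v1b1Cre males Mmp13 was called lower after volume depletion and 0 members higher, where 1.7% of all genes were called lower and 3.45% higher. Mmp13 was at 2.47, 1.89, 2.29 and 1.14 CPM in controls and at 0.704, 0.629, 0.639 and 1.10 CPM after volume depletion. The highest volume-depleted library lay just under the lowest control, and 7.41% of all genes were lower without overlap. The change was -1.33 on the log2 scale (SE 0.353, adjusted p = 0.0146), on 68 against 186 counts, and it was -1.19 (adjusted p = 0.0556) without control 6. In the fit of both sexes the call was lost, at -0.31 (adjusted p = 0.531), as it was with the replicate block, at -1.92 (adjusted p = 0.0524), and in the females alone Mmp13 had a log2 fold change of 0.61 (SE 0.512, adjusted p = 0.435). The intercalated cell markers, which mark the cells of this driver, were lower without overlap in these males, with a sum of 670 to 895 CPM in controls and 441 to 593 CPM after volume depletion, and 2 of the 5, Foxi1 and Atp6v0d2, were called lower. The macrophage markers overlapped, at 171 to 229 CPM in controls and 115 to 198 CPM after volume depletion, with Cd14 called higher. The fat markers were lower without overlap, at 30.0 to 81.8 CPM and 12.4 to 28.8 CPM, with Plin1 and Ucp1 called. The part of these lists was not tested. Mmp3 was at 0.331 to 0.463 CPM in the 4 volume-depleted libraries and had a log2 fold change of 0.54 (SE 0.793, adjusted p = 0.71). For Timp3, at 2299, 3594, 1992 and 2104 CPM, it was -0.51 (SE 0.186, adjusted p = 0.0713).

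The responses of the drivers to volume depletion were also set against each other. Of the 10 genes 0 passed edgeR's test, where 1.34% of all genes were called higher and 1.6% lower, 3 had an unadjusted p under 0.05 and DESeq2 called 0. The 3 were Mmp3 (-3.69, SE 1.40, adjusted p = 0.144), Mmp9 (-1.29, SE 0.535, adjusted p = 0.185) and Mmp13 (-1.30, SE 0.531, adjusted p = 0.181), all lower in Atp6v1b1Cre. For ischemia edgeR called 0 too, 0 had an unadjusted p under 0.05 and DESeq2 called 0, where 1.6% of all genes were called higher and 1.88% lower. With 3 or 4 libraries on each side, these tests do not show that the drivers responded alike.

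**Figure D3:**
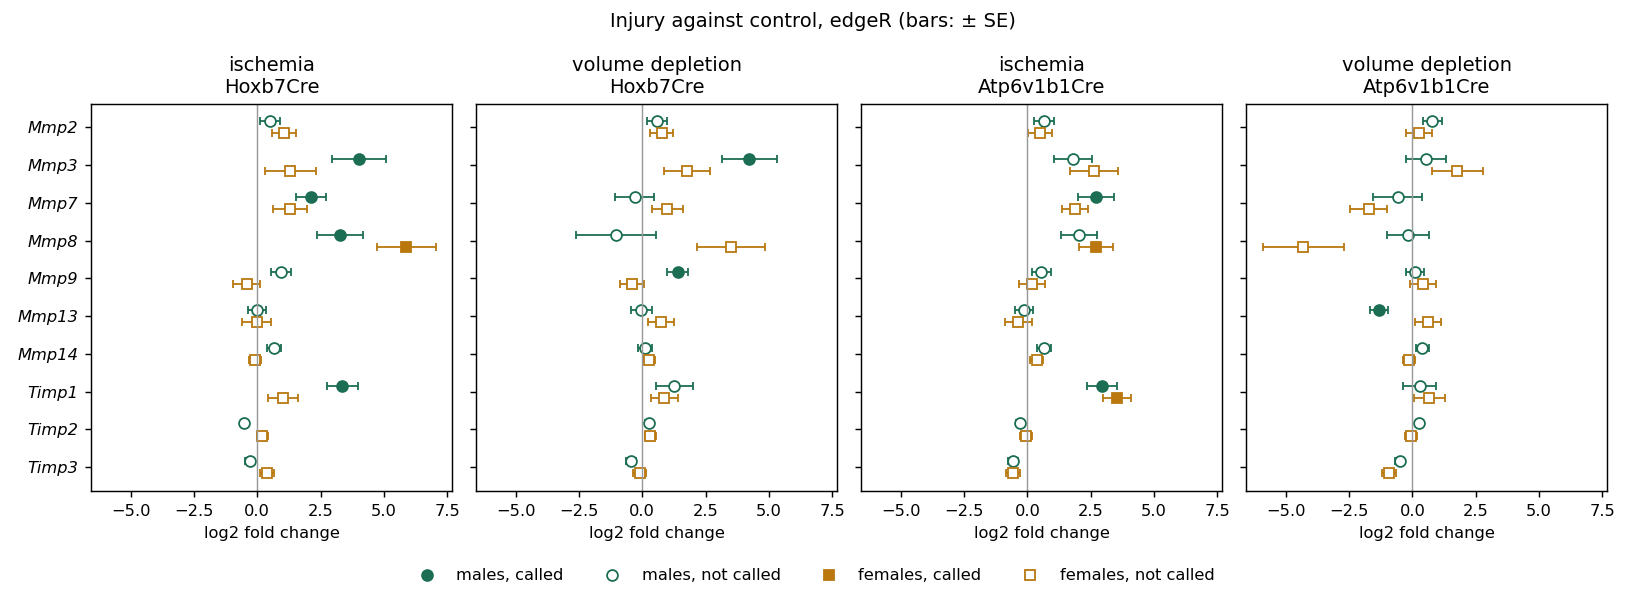
Log2 fold change against controls ± SE for each gene in the 4 combinations of insult and driver, with circles for males and squares for females, filled where the gene was called. Timp1, Mmp7 and Mmp8 lie to the right of 0 after ischemia in both sexes of both drivers, while Timp2 stays within 0.51 of 0 in every comparison shown.

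Both insults shared their controls, so they were also compared directly. In Hoxb7Cre males 3 members were called higher after ischemia than after volume depletion and 0 lower, where 6.55% of all genes were called higher and 8.15% lower. These 3 were higher without overlap and Timp2 lower, as were 21.6% and 21.3% of all genes. Mmp7 was at 0.151, 0.0724 and 0.206 CPM after volume depletion, all below the ischemic libraries, with a log2 difference of 2.42 (SE 0.674, adjusted p = 0.00745). Mmp8 had 1 count over the 3 volume-depleted libraries against 34, a ratio of 27.1 with an exact interval from 4.54 to 1099, and a log2 difference of 4.31 (SE 1.14, adjusted p = 0.00509). Both calls held without any 1 of the 7 libraries, at 1.82 to 2.80 for Mmp7 and 3.78 to 6.15 for Mmp8. Timp1 differed by 2.08 (SE 0.598, adjusted p = 0.00928), a call that was lost without ischemic library 5 (1.31, adjusted p = 0.0734) or volume-depleted library 6 (1.88, adjusted p = 0.0512). Mmp3 did not pass, at -0.21 (SE 0.732, adjusted p = 0.899). Marker lists moved with this comparison too, and their part was not tested. The neutrophil markers were at 1.60 to 3.46 CPM after ischemia and 0.796 to 1.36 CPM after volume depletion, without overlap, with S100a9 and Csf3r called higher and Ltf lower. The thick ascending limb markers were at 1773 to 2009 CPM and 762 to 850 CPM, without overlap, with Umod called higher. Col1a1, Col1a2 and Col3a1 of the fibroblast markers were called higher, and of the macrophage markers Adgre1 and Itgam higher and Cd68 and Cd14 lower. Of the principal cell markers Aqp4 and Avpr2 were called higher and Aqp3 lower. Foxi1 of the intercalated cell markers was called higher, and Cdh5 of the endothelial and Cfd of the fat markers lower.

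In Atp6v1b1Cre males 4 members were called higher after ischemia than after volume depletion and 0 lower, where 4.39% of all genes were called higher and 7.16% lower. Mmp3, Mmp7, Mmp13 and Timp1 were higher without overlap and Timp2 lower, as were 15.8% and 13.8% of all genes. Timp1 was at 0.387, 0.265, 0.576 and 0.116 CPM after volume depletion, and the log2 difference was 2.64 (SE 0.588, adjusted p = 0.00171). Mmp7 had at most 2 counts in a volume-depleted library, and differed by 3.29 (SE 0.790, adjusted p = 0.00308). Each of these calls held without any 1 of the 7 libraries, at 2.13 to 3.01 for Timp1 and 2.78 to 3.94 for Mmp7. With the replicate block neither passed, at adjusted p = 0.0545 for Timp1 and 0.0734 for Mmp7. Mmp8 differed by 2.24 (SE 0.730, adjusted p = 0.0236) with overlap, and was lost without ischemic library 1 (1.42, adjusted p = 0.248) or volume-depleted library 2 (1.87, adjusted p = 0.0768), 6 (1.94, adjusted p = 0.0579) or 7 (2.08, adjusted p = 0.0535). It was also lost with the replicate block and with the compared groups alone in the fit, at adjusted p up to 0.284. Mmp13 differed by 1.21 (SE 0.374, adjusted p = 0.0170), and by 0.84 (adjusted p = 0.166) without ischemic library 1, without which 2 members were called. In the fit of both sexes Mmp13 differed by 0.10 (adjusted p = 0.870), and with the compared groups alone in the fit by 1.21 (adjusted p = 0.0548). Marker lists moved with this comparison, and their part was not tested. The thick ascending limb markers, both called higher, were at 1825 to 3160 CPM after ischemia and 862 to 998 CPM after volume depletion, and the fat markers, of which Adipoq, Plin1 and Ucp1 were called higher, at 63.0 to 120 CPM and 12.4 to 28.8 CPM. Of overlapping lists, Foxi1, Atp6v1g3 and Atp6v0d2 of the intercalated cell, S100a9 and Retnlg of the neutrophil, Itgam and Lyz2 of the macrophage and Col1a1, Col3a1 and Postn of the fibroblast markers were called higher, and 3 proximal tubule markers were called lower and 1 higher.

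Timp2 was lower after ischemia than after volume depletion in both drivers, by less than 2-fold. In Hoxb7Cre males it was at 37.4, 39.1 and 40.6 CPM after volume depletion, above the ischemic range of 17.7 to 27.5 CPM, a log2 difference of -0.78 (SE 0.153, adjusted p = 4.34e-04), where 16.4% of all genes were lower at any size. In Atp6v1b1Cre males it was at 32.5, 37.1, 46.2 and 43 CPM, above the ischemic range of 25.5 to 29.4 CPM, a difference of -0.57 (SE 0.155, adjusted p = 0.00792), where 15% were. The adjusted p stayed under 0.05 without any 1 of the libraries in each driver. In Atp6v1b1Cre it did not in the fit of both sexes, at -0.32 (adjusted p = 0.103), or with the replicate block, at -0.30 (adjusted p = 0.562).

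The females were a second set of mice with their own controls. Timp1 rose in ischemic Atp6v1b1Cre females as in the males. It was at 0.256, 0.365, 0.408 and 0.239 CPM in controls and at 1.66, 2.45 and 7.43 CPM after ischemia, with no overlap. The change was 3.54 on the log2 scale (SE 0.554, adjusted p = 0.00328), an 11.6-fold change, and it held without any 1 of the 7 libraries, at 2.66 to 3.91. Mmp8 was also called higher, giving 2 of 10 where 0.581% of all genes were called higher and 0.571% lower, and 3 members were higher without overlap, as were 10% of all genes. It was at 0.0426, 0.146, 0.0907 and 0.144 CPM in controls and at 0.677, 1.10 and 0.418 CPM after ischemia, with a log2 fold change of 2.71 (SE 0.664, adjusted p = 0.0420). This call was lost without ischemic library 2 or 3 or any control, at 2.31 to 2.93 with adjusted p from 0.0659 to 0.187. Mmp7, at 0.146 to 0.499 CPM in controls and 0.893 to 1.21 CPM after ischemia, did not overlap and missed the threshold at 1.88 (SE 0.515, adjusted p = 0.0525), but passed at 2.33 (adjusted p = 0.0471) without control 12. It also passed with another filter on low counts (filterByExpr), at 1.89 (adjusted p = 0.0347), and in DESeq2, at 1.89 (adjusted p = 0.0192). The neutrophil markers were at 1.24 to 1.82 CPM in controls and 2.49 to 4.20 CPM after ischemia, with 0 of 10 called and Mpo at 0 after ischemia. The fibroblast markers were at 130 to 203 CPM in controls and 158 to 264 CPM after ischemia, with overlap, and Col1a1 was called higher. The part of these lists was not tested.

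Ischemic Atp6v1b1Cre library 6 stood apart in these females. It had the highest Timp1 and Mmp7 and the highest sum of fibroblast markers, 264 CPM against 158 and 177, but the lowest Mmp3, with 2 counts or 0.0929 CPM against 1.05 and 2.31 CPM. Mmp3 had a log2 fold change of 2.62 (SE 0.947, adjusted p = 0.125), and of 3.15 (adjusted p = 0.0392) without library 6.

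In ischemic Hoxb7Cre females 1 member, Mmp8, was called higher and 0 lower, where 0.784% of all genes were called higher and 1.29% lower. Mmp2, Mmp8 and Timp3 were higher without overlap, as were 10.8% of all genes. Mmp8 had 0 counts in all 4 controls and 5, 4 and 8 counts in the ischemic libraries. The exact interval of the ratio, which covers the counting error of both groups, reached down to 8.02. With the control group set to a floor of 3 counts, the ratio was 11.0. The adjusted p was 0.0257, and 0.0576 to 0.157 without ischemic library 2 or 3 or control 6, 9 or 10, without each of which 0 members were called. This call was also lost with the replicate block and with the series of library numbers, at adjusted p up to 0.660. The neutrophil markers were at 0.746 to 1.05 CPM in controls and 1.57 to 2.47 CPM after ischemia, without overlap, with 0 of 10 called and Elane and Mpo at 0 after ischemia. The macrophage markers overlapped, at 53.6 to 111 CPM and 81.4 to 132 CPM, but Adgre1 and Lyz2 were called higher. The markers of the thick ascending limb were higher without overlap, at 939 to 2320 CPM and 3026 to 4123 CPM, with Umod called. Col1a1 of the fibroblast markers was called higher and Ucp1 of the fat markers lower. The part of these lists in Mmp8, Mmp2 and Timp3 was not tested. Timp1 was at 0.123, 0.785, 0.176 and 0.309 CPM in controls and at 0.761, 1.01 and 0.378 CPM after ischemia. Control 6 lay above 2 of the 3 ischemic libraries, and the log2 fold change was 1.01 (SE 0.588, adjusted p = 0.305). The response of Timp1 in females minus that in males was -2.37 (SE 0.898, adjusted p = 0.0802), where 2.22% of all genes were called higher and 4.77% lower. Of the 10 genes edgeR called 0 for this sex difference, 4 had an unadjusted p under 0.05 and DESeq2 called 1, Timp1. It was also called, at -2.65 (adjusted p = 0.0366), without female control 1. In Atp6v1b1Cre the same difference for Timp1 was 0.61 (SE 0.862), and edgeR called 0 genes of the whole table, 0 members had an unadjusted p under 0.05 and DESeq2 called 0.

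After volume depletion 0 members were called in females of either driver. In Hoxb7Cre females 0.0378% of all genes were called higher and 0.0614% lower, 1 member had an unadjusted p under 0.05 and DESeq2 called 0. Mmp2 was higher without overlap, as were 1.54% of all genes, at 1.29 to 1.99 CPM against 0.452 to 1.19 CPM (0.77, SE 0.453, adjusted p = 0.745). Mmp3 was at 0.375 to 1.53 CPM in volume-depleted Hoxb7Cre females and at 0 to 0.561 CPM in their controls, a log2 fold change of 1.76 (SE 0.900, adjusted p = 0.673). Mmp9 did not follow the males. It was at 0.164 to 0.810 CPM in female controls and at 0.135 to 0.485 CPM after volume depletion, -0.40 (SE 0.482, adjusted p = 0.875). Its response in females minus that in males was -1.8 (SE 0.619, adjusted p = 0.0426), the 1 member called for a sex difference in Hoxb7Cre volume depletion, where 5.35% of all genes were called higher and 5.48% lower. That call was lost without 11 of the 15 libraries, taken out 1 at a time: female controls 6, 9 and 10, male controls 2, 3 and 5, volume-depleted females 1, 2 and 3 and volume-depleted males 4 and 7, with values from -1.94 to -1.47 and adjusted p from 0.0524 to 0.117. The male controls, at 0.194 to 0.296 CPM, lay within the range of the female controls.

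In volume-depleted Atp6v1b1Cre females 3 members had an unadjusted p under 0.05 and DESeq2 called 0, where 6.3% of all genes were called higher and 3.59% lower. Mmp7, Mmp8 and Timp3 were lower without overlap, as were 16.2% of all genes. Timp3 was at 3542, 4698, 2914 and 3531 CPM in controls and at 2258, 2406 and 1103 CPM after volume depletion, without overlap. Its log2 fold change was -0.93 (SE 0.285, adjusted p = 0.0289), just under 2-fold, where 8.81% of all genes were lower at any size. It was called at -1.12 (adjusted p = 0.0329) without volume-depleted library 4 and at -1.0 (adjusted p = 0.0285) without control 12. It was -0.65 (adjusted p = 0.138) without volume-depleted library 5, and its adjusted p was 0.0578 without volume-depleted library 3 and 0.0882 without control 8. Library 5 was the shallowest of the series, and its fibroblast markers summed to 22.4 CPM against 142 and 163 CPM in the other 2. The intercalated cell markers were lower without overlap, with a sum of 820 to 1212 CPM in controls and 444 to 621 CPM after volume depletion, and Foxi1 and Atp6v0d2 were called lower. Csf1r and Itgam of the macrophage and Col3a1 and Postn of the fibroblast markers were also called lower, and Cd68 and Cd14 higher. The part of these lists was not tested. Mmp8 had 0 counts in the 3 volume-depleted libraries and 10 in the controls, with adjusted p = 0.0721 in edgeR. The exact interval of the ratio reached up to 0.827. With the volume-depleted group set to a floor of 3 counts, Mmp8 was 1.8-fold lower. Mmp7 was at 0.122, 0.0958 and 0 CPM, all below the controls, with a log2 fold change of -1.73 (SE 0.741, adjusted p = 0.108). For the sex difference in Atp6v1b1Cre volume depletion edgeR called 0 genes of the whole table, 2 members had an unadjusted p under 0.05 and DESeq2 called 0 members. The lowest p among the members was that of Mmp13, at 1.96 (SE 0.627, adjusted p = 0.411).

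**Figure D4:**
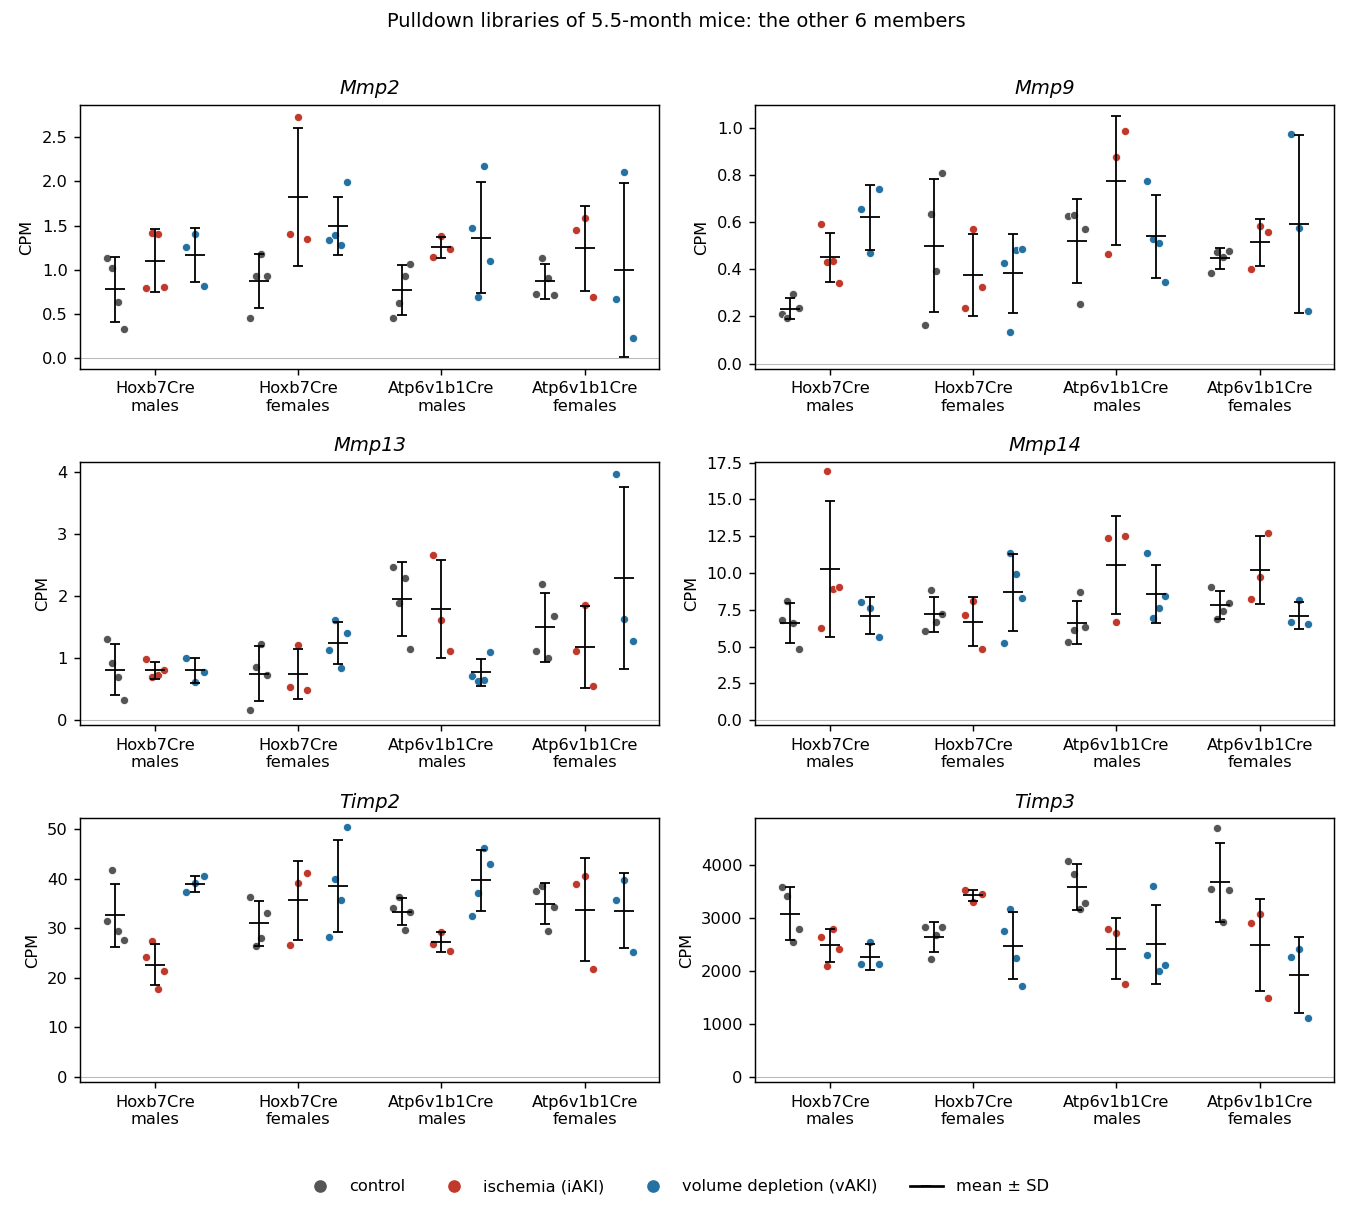
CPM of the other 6 genes in each pulldown library of mice of 5.5 months, by driver, sex and treatment, with black bars for the mean ± SD. Timp2 is lower after ischemia than after volume depletion in the males of both drivers, and Mmp13 is low in the volume-depleted Atp6v1b1Cre males (0.629 to 1.10 CPM) and at 1.28 to 3.97 CPM in the females.

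Genes that work with these enzymes were counted by lists. Of 15 other MMPs tested, 0 were called in ischemic Hoxb7Cre males and 0 in volume-depleted Atp6v1b1Cre males, with medians of 0.37 and 0.05 on the log2 scale. Of all genes, 1.52% were called higher and 0.784% lower in the former and 3.45% and 1.7% in the latter. Mmp19, at 6.21 ± 1.64 CPM after ischemia and 3.06 ± 0.549 CPM in controls, was called higher in ischemic Atp6v1b1Cre males (1.02, SE 0.23, adjusted p = 0.00922), where 1.14% of all genes were. Mmp20, at 0 counts in all volume-depleted Hoxb7Cre males, was the 1 called lower there, from a mean of 0.0929 CPM in controls, where 6.81% of all genes were called lower.

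Among the genes listed as inhibitors and activators, Lcn2, which binds Mmp9, was called higher in ischemic males of both drivers, with log2 fold changes of 2.78 (adjusted p = 0.0107) in Hoxb7Cre and 4.41 (adjusted p = 0.00107) in Atp6v1b1Cre. Of all genes, 1.52% and 1.14% were called higher there. Among ischemic females Lcn2 was called higher in Atp6v1b1Cre, where 0.581% of all genes were, and was not called in Hoxb7Cre. Pcolce, which helps to process procollagen (1.46, adjusted p = 1.07e-04), and Plaur, the urokinase receptor (1.20, adjusted p = 0.0256), were also called higher in ischemic Atp6v1b1Cre males. Pcolce was called higher in ischemic Hoxb7Cre females too, where 0.784% of all genes were. In volume-depleted Hoxb7Cre males the activators went opposite ways, with Plat at 1.14 (adjusted p = 5.44e-04) and Plau, urokinase, at -1.70 (adjusted p = 2.77e-04). There 9.61% of all genes were called higher and 6.81% lower. Plaur (1.74, adjusted p = 0.00102) and A2m (5.07, adjusted p = 0.00243) were called higher in volume-depleted Atp6v1b1Cre males, where 3.45% of all genes were. In the Atp6v1b1Cre females Plaur and A2m were also called higher and Plau lower, as were 6.3% and 3.59% of all genes. In volume-depleted Hoxb7Cre females 0 of the 17 were called, where 0.0378% of all genes were called higher and 0.0614% lower.

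Of 18 ADAM and ADAMTS proteinases, which are related to the MMPs and of which Timp3 inhibits several, 5 were called higher in ischemic and 9 in volume-depleted Hoxb7Cre males, where 1.52% and 9.61% of all genes were. In Hoxb7Cre females 2 were called higher after ischemia, and 0 higher and 1 lower after volume depletion. Of all genes, 0.784% were called higher after ischemia there, and 0.0378% higher and 0.0614% lower after volume depletion. Adamts1 was at 69 ± 5.97 CPM in controls, 192 ± 51.6 CPM after ischemia and 390 ± 56.1 CPM after volume depletion (SD, n = 4, 4 and 3). Its log2 fold changes were 1.49 (adjusted p = 0.00513) and 2.5 (adjusted p = 3.52e-06). In Hoxb7Cre females it was at 229 ± 108.9 CPM in controls, 78.6 ± 28.8 CPM after ischemia and 229 ± 187 CPM after volume depletion (SD, n = 4, 3 and 4), and neither change passed. For each insult 5 of the 18 had a response called lower in females than in males, Adamts1 among them at -3.04 (adjusted p = 0.0117) for ischemia and -2.52 (adjusted p = 0.0176) for volume depletion, where 4.77% and 5.48% of all genes were called lower. For volume depletion Adam10 and Adamts16 were called higher in females than in males, as were 5.35% of all genes, and for ischemia 0 of the 18 were. Adam19, Adamts2 and Adamts4 were also called higher in Hoxb7Cre males after each insult, with log2 fold changes from 1.40 to 2.96. Adam8 was called after ischemia, by 1.45 in Hoxb7Cre and 1.68 in Atp6v1b1Cre males. Adamts15 (2.43) and Adamts14 (1.71) rose after volume depletion in Hoxb7Cre males, and Adam10 was called lower after volume depletion, by -1.19 (adjusted p = 1.87e-06). In ischemic Atp6v1b1Cre males 3 were called higher and 3 lower, the latter being Adamts14 (-1.86), Adamts15 (-2.04) and Adamts5 (-1.37), and 0 were called after volume depletion. Of all genes, 1.14% were called higher and 1.68% lower after ischemia in these males, and 3.45% and 1.7% after volume depletion.

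Of 18 substrates in matrix and basement membrane, 6 were called higher and 0 lower in ischemic Hoxb7Cre males, where 1.52% and 0.784% of all genes were: Col1a1 (2.83), Col3a1 (2.24), Spp1 (1.98), Col1a2 (1.88), Tnc (1.59) and Fn1 (1.31). In ischemic Atp6v1b1Cre males Col1a1 (2.53), Spp1 (2.46) and Tnc (1.24) were called higher, where 1.14% of all genes were. Tnc, which encodes the matrix glycoprotein tenascin C, was the 1 substrate called in all 4 male comparisons, at 1.88 and 1.21 after volume depletion in Hoxb7Cre and Atp6v1b1Cre. Col4a1 (1.29), Eln (1.46) and Lama3 (-1.67) were also called in volume-depleted Hoxb7Cre males, where 9.61% of all genes were called higher and 6.81% lower. In Hoxb7Cre females 1 of the 18, Col1a1, was called higher after ischemia and 0 after volume depletion. Of all genes, 0.784% were called higher and 1.29% lower after ischemia there, and 0.0378% and 0.0614% after volume depletion. The response of Tnc to ischemia in Hoxb7Cre was called lower in females than in males, at -1.81 (adjusted p = 0.0202). That of Lamb3 was called higher, where 2.22% of all genes were called higher and 4.77% lower. For volume depletion Lamb1 was called higher and Col4a1 and Eln lower, where 5.35% and 5.48% of all genes were. The collagens of this list are in part the fibroblast markers given beside Timp1.

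The genes most like a member were named by Pearson's r of log2 CPM over the 48 pulldowns, as a description over libraries that share groups and drivers, for the 5 members with a mean of at least 1 CPM. Timp3 was most like Mcur1 (0.83), Abca6 (0.78) and Lrrn1 (0.78), Timp2 like Gaa (0.76), Mmp14 like Tmem173 (0.71) and Mmp2 like Cygb (0.60). Over the 21 total RNA libraries, which are all of controls, Mmp14 was most like Pdgfra (0.89), Timp2 like Fbln1 (0.90), Mmp2 like Cd40 (0.84) and Timp3 like Mmgt1 (0.93).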

How the data were processed

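Labelled or total RNA of 69 mouse kidney samples was sequenced after poly(A) selection. According to the labels and the study's methods, the authors demultiplexed with CASAVA 1.8.2, trimmed with Trimmomatic 0.36, aligned to mm10 with STAR 2.5.3a and deposited raw read counts per gene from HTSeq 0.6.1p2. The annotation and the strandedness of the kit are not given in the sources used here, so reads of overlapping genes on opposite strands may not be separated. Depth ranged from 12618062 to 30305464 counts.

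Groups came from the titles. Counts were tested with edgeR 4.0.16 (limma 3.58.1, R 4.3.3) by quasi-likelihood, with TMM normalization and Benjamini-Hochberg adjustment over 21175 genes with at least 2 counts over all libraries, in 22 males, 21 females, 43 mice of both sexes (sex differences) or 42 controls (sex as a covariate). A call needed at least a 2-fold change (1 on the log2 scale) besides an adjusted p under 0.05. Plotted log2 CPM used a prior count of 2. Intervals of count ratios are exact at a confidence level of 0.95 and, like floors of 3 counts, cover counting error only. Total and pulldown libraries were treated as independent, since the labels do not tie them to the same mice. Within runs of library numbers, however, the total RNA libraries follow the control pulldowns in the same order of driver, sex and age. They may therefore share mice, and no test paired them in this order. The script was tested on simulated data. The 10 members and all lists were chosen with earlier results of these data known. Values were named for all members, for list genes called in a male injury comparison (at most 6 per list and comparison, by adjusted p) and for the 3 genes most like each member. The results of 1 list gene are not reported here. Alternatives were DESeq2 1.42.0, its size factors, other filters, no fold threshold, a replicate block, the series of library numbers, other sets of libraries and leaving out each library. A series was a run of library numbers set off from the next by a wide gap. Promoters came from RefSeq (GRCm38.p6). No 2 libraries were identical (highest Pearson's r 0.994).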

Additional observations from a re-analysis of the deposited data

Results flagged for a closer look

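Among the sets of 4 to 10 libraries of a gene and group, 8, or 7.34% of those tested, held a library far from the others by Dixon's test, and chance flags about 1 in 20. In controls, Mmp3 was at 0.145 CPM in Hoxb7Cre male pulldown 3 and at 0 in the 3 others. Mmp7 was at 0 CPM in Atp6v1b1Cre male pulldown 9, against 0.0838 to 0.100 in the others, and at 0.0469 CPM in Hoxb7Cre male pulldown 5, against 0.198 to 0.242. Mmp9 was at 0.254 CPM in Atp6v1b1Cre male pulldown 10, against 0.569 to 0.629. These 4 rest on at most 6 counts in the library named. Mmp9 was at 0.135 CPM in volume-depleted Hoxb7Cre female pulldown 2, against 0.428 to 0.485. In total RNA of females, Mmp14 was at 10.2 CPM in Atp6v1b1Cre library 6, against 12.7 to 13.2, Mmp9 at 0.454 CPM in Atp6v1b1Cre library 16, against 1.05 to 1.22, and Timp2 at 86.8 CPM in Hoxb7Cre library 12, against 127.9 to 134.4.

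The response of Mmp9 to volume depletion in Hoxb7Cre mice differed between the sexes in the test of that difference, by -1.80 on the log2 scale in females minus males. The call held without 4 of the 15 libraries, taken out 1 at a time, and under 3 of 6 other settings, and it was lost with no filter on low counts, with the replicate block and with the series of library numbers, at adjusted p up to 0.974.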

How the results depend on the processing

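Over all alternatives 3191 values kept their side of the threshold, 78 no longer passed, 30 newly passed and 0 changed sign among those called. Changes of sign among values that were not called were not counted. Members called are counted below, and the cause of a changed count was not tested. Without a fold threshold there was 1 in volume-depleted Atp6v1b1Cre females (Timp3), 8 for Atp6v1b1Cre pulldown against total RNA and 2 between the pulldowns, where filterByExpr gave 0 (Mmp8 is filtered out), female controls alone 0, mice of 5.5 months alone 2 and no sex covariate 2. The sex difference of volume depletion in Hoxb7Cre had 0 with no filter. Replicate numbers did not pair the libraries (correlations of deviations from -0.446 to 0.382). With the replicate block, possible in 17 of 19 comparisons, there were 2 in ischemic Hoxb7Cre males, 0 in ischemic and 2 in volume-depleted Atp6v1b1Cre males, 1 between these insults, 0 in ischemic Hoxb7Cre females, 0 for the sex difference of volume depletion and 2 between the pulldowns. There the 2 called in volume-depleted Hoxb7Cre males were Mmp3 and Timp1 (3.23, adjusted p = 0.0126), and Mmp9 did not pass (1.29, adjusted p = 0.225), and in volume-depleted Atp6v1b1Cre males they were Mmp2 (2.25, adjusted p = 0.0489) and Timp3 (-1.01, adjusted p = 0.0491), while Mmp13 did not pass. A covariate for the series of library numbers gave 0 in ischemic Hoxb7Cre females, 1 in ischemic Atp6v1b1Cre females and 0 for that sex difference. Fits of the compared groups alone gave 1 in ischemic Atp6v1b1Cre females and 2 between insults in Atp6v1b1Cre males. With both sexes there was 1 in volume-depleted Hoxb7Cre, 4 in ischemic and 0 in volume-depleted Atp6v1b1Cre mice, and with the males of 3 months 4 in ischemic Atp6v1b1Cre males. DESeq2 gave 0 in ischemic Hoxb7Cre females, 3 in ischemic Atp6v1b1Cre females (with Mmp7) and 1 (Timp1) for the sex difference of ischemia in Hoxb7Cre. It gave Mmp8 no adjusted p in ischemic Hoxb7Cre mice of either sex, so Mmp8 was not tested there. Leaving out each library gave 1 to 4 in ischemic Hoxb7Cre males, 1 to 2 in ischemic Atp6v1b1Cre males, 2 to 3 and 2 to 4 between insults, 0 to 1 in volume-depleted Atp6v1b1Cre males and females, 0 to 1 in ischemic Hoxb7Cre females, 1 to 3 in ischemic Atp6v1b1Cre females and 0 to 1 for each sex difference in Hoxb7Cre. Mmp3, Mmp7 and Mmp8 had few counts in controls, which limits their fold changes.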
